A study of Mus musculus with 2 samples.

Results

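Imprinted microRNA (miRNA) genes are read from 1 parental chromosome, and 5 of them outside the Dlk1-Dio3 region were described here in the newborn mouse forebrain: Mir335, Mir298, Mir296, Mir483 and Mir675. They were chosen by name and position, and each had 1 row in the deposited tables, 5 of 1973 rows in all. Reads of small RNA had been counted per miRNA locus in 2 libraries, each from the single forebrain of a B6NCrl mouse on postnatal day 0. Replicate 1 came from pup 1 and replicate 2 from pup 3, both pups carried the same donor entry, and sex had not been collected. No treatment or genetic change is named in the labels. With 1 group and no condition to compare, each locus is described by its level, by its spread between the pups (mean ± SD, n = 2 for every such value) and by how the libraries differed.

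A miRNA is cut from a hairpin in a longer transcript, and its seed, bases 2 to 8, pairs with the messenger RNAs that it represses. Imprinted genes of the Mest, Igf2, H19 and Gnas regions act in growth, placenta and metabolism. Mest and Igf2 are transcribed mainly from the paternal chromosome, H19 from the maternal one, and Nespas, the antisense transcript of the Gnas region, from the paternal one. The hosts' own RNAs were not measured in these libraries, and reads were not assigned to a parental chromosome.

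The loci lie in 3 regions of GRCm38, the assembly also called mm10. Mir335 (ENSMUSG00000065501.1, chromosome 6, 30741299 to 30741396, plus strand) lies in an intron of all 7 annotated Mest transcripts that span it. Mir675 (ENSMUSG00000076275.1, chromosome 7, 142577064 to 142577147, minus strand) lies within H19, in an exon of 3 and an intron of 1 of the 4 transcripts that span it. Mir483 (ENSMUSG00000070140.1, chromosome 7, 142654924 to 142654996, minus strand) lies 77.8 kb from Mir675, in an intron of all 7 spanning transcripts of Igf2, the gene of insulin-like growth factor 2. It also lies in an intron of the 1 spanning transcript of Gm49394, a protein-coding gene annotated on the same strand. Mir296 (ENSMUSG00000065521.1, chromosome 2, 174267047 to 174267125, minus strand) and Mir298 (ENSMUSG00000065410.1, chromosome 2, 174267504 to 174267585, minus strand) are 378 bases apart. No annotated gene overlaps either on its strand, and Mir298 lies 13.7 kb past the annotated 3′ end of Nespas.

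**Figure D1:**
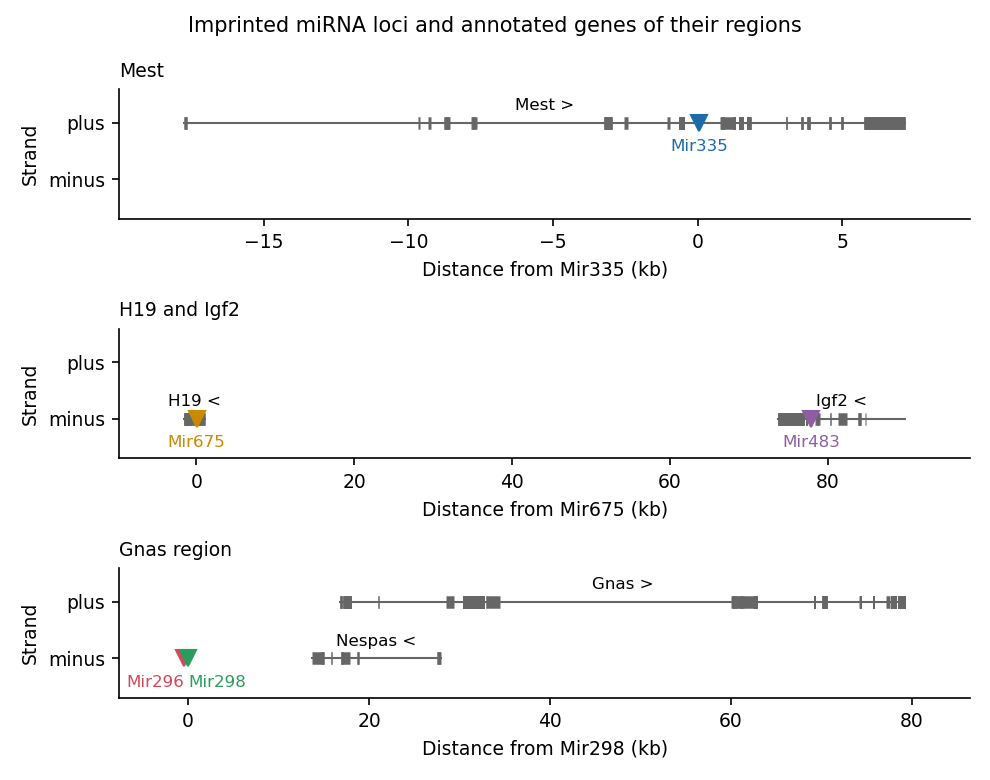
Positions of the 5 miRNA loci (triangles) and of the annotated genes (lines, with the exons of all transcripts as boxes) by strand, in kb from Mir335, Mir675 and Mir298. Mir335, Mir675 and Mir483 sit inside their hosts, while Mir296 and Mir298 sit 378 bases apart and 13.7 kb or more from Nespas. Gm49394, which also spans Mir483, is not drawn.

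The mature sequences are shown because the 5 loci were grouped as imprinted and share no seed. They are from RefSeq on GRCm38.p6, where all 5 loci matched by symbol, run 5′ to 3′, and carry the seed in capitals.
miR-335-5p: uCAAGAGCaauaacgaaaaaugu
miR-335-3p: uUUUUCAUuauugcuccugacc
miR-298-5p: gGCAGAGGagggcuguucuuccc
miR-298-3p: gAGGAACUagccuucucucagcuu
miR-296-5p: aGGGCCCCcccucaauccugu
miR-296-3p: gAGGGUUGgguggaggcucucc
miR-483-5p: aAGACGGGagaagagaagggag
miR-483-3p: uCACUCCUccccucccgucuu
miR-675-5p: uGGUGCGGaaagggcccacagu
miR-675-3p: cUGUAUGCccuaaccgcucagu
The 10 arms had 10 distinct seeds, and no mature sequence of another locus in the RefSeq table carried any of them. The longest run of bases that any of the 5 hairpins shared with another of the 1894 hairpins compared was 12, between Mir298 and Mir8099-1 and Mir8099-2, and 11 for the other 4. Mature arms are 21 to 24 bases long, so a whole arm has no exact match in another hairpin of this set. Matches with mismatches and matches elsewhere in the genome were not looked for.

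The hairpins of Mir296 and Mir298 are shown in full because the ratio of these neighbours differed between the pups. Both arms are in capitals.
Mir296: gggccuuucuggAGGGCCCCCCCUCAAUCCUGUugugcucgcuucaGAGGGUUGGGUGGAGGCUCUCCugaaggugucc
Mir298: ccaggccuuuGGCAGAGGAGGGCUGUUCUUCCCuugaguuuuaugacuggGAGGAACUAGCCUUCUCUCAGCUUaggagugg
G and C made up 63.3% of the Mir296 hairpin and 53.7% of the Mir298 hairpin. The Mir296-5p arm holds a run of 7 C. Mir675 stood at 63.1%, Mir483 at 58.9% and Mir335 lowest at 42.9%, against a median of 50.5% over the 331 loci with at least 10 counts in both pups. The minimum free energy predicted for the hairpins was −56.0 kcal/mol for Mir675, −44.3 for Mir335, −43.2 for Mir296, −42.7 for Mir298 and −33.8 for Mir483. Per base, Mir675 folded more stably than 99.4% of those 331 loci and Mir335 more stably than 58.9%.

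The libraries held 2742746 counts on the strand of a locus in pup 1 and 2427066 in pup 3, so 1 read was worth 0.365 and 0.412 CPM (counts scaled to a total of 1000000). Of all reads, 42.2% in pup 1 and 44.1% in pup 3 had several mapping places and are in no locus. Markers of neurons were present, with Mir137 at 25786 ± 3504 CPM and Mir128-1 at 11051 ± 405, while the 3 Mir124a copies, which share sequence with each other, had at most 7.06 ± 2.25. Markers of the hindbrain and spinal cord were low, with Mir10b at 135 ± 21.8 CPM. The tissue is a mixture of cells, and fewer cells of a type cannot be told apart from less of a miRNA per cell.

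Among the reads counted at a locus, the 5 loci spanned the range from one of the most abundant to one near the detection limit. Reads with several mapping places are in no locus, and the ranks and shares leave them out. A miRNA with near copies elsewhere may therefore rank too low here. Mir335 of Mest stood at rank 8 of all loci, the Gnas-region miRNAs Mir298 and Mir296 at ranks 59 and 89, Mir483 of Igf2 at rank 174 and Mir675 of H19 at rank 395. Together they held 3.48% of the counts in pup 1 and 2.58% in pup 3, a mean of 3.03% ± 0.637. Mir335 alone made up 86.3% of their summed counts in pup 1 and 84.9% in pup 3. The mean level of Mir335 was 127-fold that of Mir483.

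**Figure D2:**
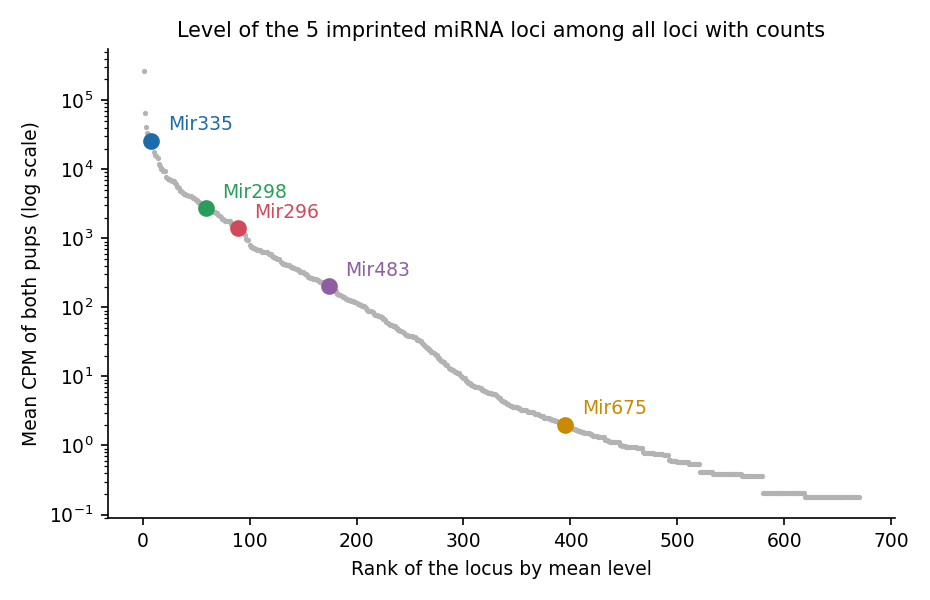
Mean CPM of both pups on a log scale against rank, for every locus with a count (grey) and the 5 imprinted loci (colours). Mir335 stands at rank 8, Mir298 and Mir296 at 59 and 89, Mir483 at 174, and Mir675 at 395 in the tail.

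Mir335, known as a repressor of metastasis genes in tumour cells, had 82255 counts in pup 1 and 53043 in pup 3. These are 29990 CPM (95% exact Clopper-Pearson interval 29788 to 30192) and 21855 CPM (21671 to 22040). The mean was 25922 ± 5752 CPM, with the higher value in pup 1. Its rank was 6 in pup 1 and 9 in pup 3. Intervals cover counting error only, and not the spread between animals or library preparations. Copies made by PCR count as separate reads, so the intervals may be too narrow even for counting error.

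Mir298, known to repress the amyloid precursor protease Bace1 in cultured cells, had 7552 counts in pup 1 and 6543 in pup 3. Its level was 2753 CPM (2692 to 2816) in pup 1 and 2696 CPM (2631 to 2762) in pup 3, a mean of 2725 ± 40.7. The intervals of the pups overlapped. Its neighbour Mir296, known to act on pluripotency factors when embryonic stem cells differentiate, had 4965 and 2418 counts. Its level was 1810 CPM (1760 to 1861) in pup 1 and 996 CPM (957 to 1037) in pup 3, a mean of 1403 ± 576. The pups stood apart here, with pup 1 the higher.

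Mir483, which sits in the growth factor gene Igf2, had 566 counts in pup 1 and 489 in pup 3. Its level was 206 CPM (190 to 224) and 201 CPM (184 to 220), a mean of 204 ± 3.45, and the intervals overlapped. Mir675, the miRNA made from the noncoding growth regulator H19, had 3 counts in pup 1 and 7 in pup 3. Its level was 1.09 CPM (0.226 to 3.20) and 2.88 CPM (1.16 to 5.94), a mean of 1.99 ± 1.27. In pup 1 it did not exceed the limit of 3 counts that a count of 0 allows, 1.09 CPM. At this depth Mir675 could not be measured beyond that order of magnitude.

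**Figure D3:**
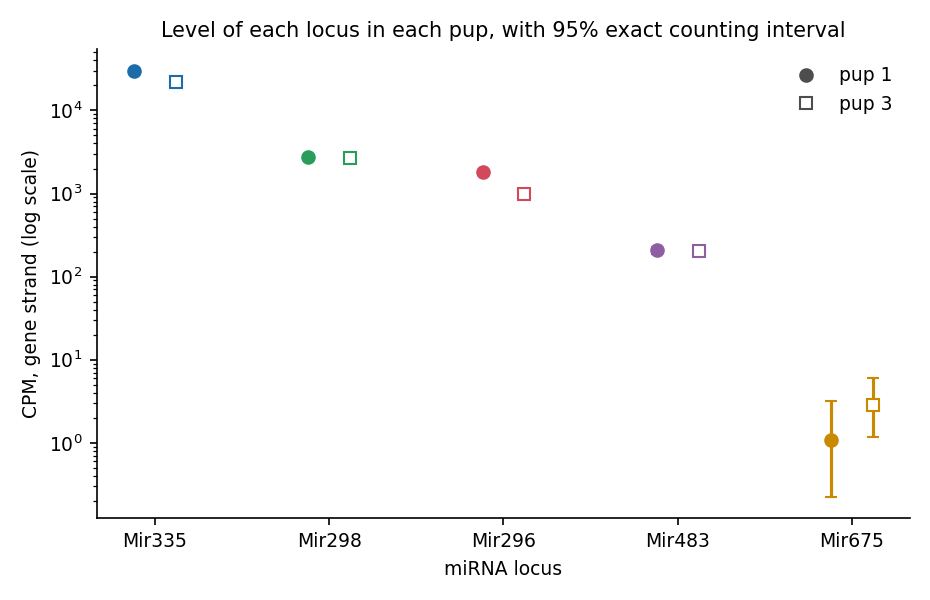
CPM on the gene strand, on a log scale, of the 5 loci in pup 1 (filled circles) and pup 3 (open squares), with 95% exact counting intervals, which are smaller than the symbols except for Mir675. On this scale of library totals, the pups stand apart at Mir335 and Mir296 and close together at Mir298 and Mir483.

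The order of the 5 loci was the same in both pups, and the ranges of neighbours in that order did not overlap. Mir335 stood 10.9-fold (10.6 to 11.2) above Mir298 in pup 1 and 8.11-fold (7.90 to 8.32) in pup 3. Mir298 stood 1.52-fold (1.47 to 1.58) above Mir296 in pup 1 and 2.71-fold (2.58 to 2.84) in pup 3. The gap between the means of Mir298 and Mir296 was 2.30 times the larger SD of both, and that between Mir296 and Mir483 2.08 times. Mir483 stood 189-fold (64.2 to 918) above Mir675 in pup 1 and 69.9-fold (33.6 to 175) in pup 3. The loci lie on the same strand, in separate genes and 77.8 kb apart. Reads of a miRNA cover a whole arm, so counts were compared between loci as they are. Divided by hairpin length, the mean levels kept this order, at 265, 33.2, 17.8, 2.79 and 0.0237 CPM per base. Ligation and amplification favour some small RNAs over others, so a ratio between loci is less certain than a ratio between pups at 1 locus.

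Reads on the opposite strand were nearly absent at these loci. Mir335 had 3 such counts in pup 1 and 0 in pup 3, and the other 4 loci had 0 in both. The counts of both strands together therefore differ from those of the gene strand at Mir335 in pup 1 alone.

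Of the 5 loci, Mir335 and Mir296 passed the test between the pups, both lower in pup 3. Mir335 was lower by 1.37-fold, a log2 ratio of CPM + 1 (pup 3 over pup 1) of −0.46, and its adjusted p was under the smallest number that the software holds. Mir296 was lower by 1.82-fold, a log2 ratio of −0.86 (two-sided Fisher's exact test, p = 2.96e-134 after Benjamini-Hochberg adjustment over the 400 loci with at least 10 summed counts). Mir298, 378 bases away, had a log2 ratio of −0.03 (Fisher's exact adjusted p = 0.292), and the interval of its ratio of CPM was 0.947 to 1.01. Mir483 also had −0.03 (Fisher's exact adjusted p = 0.811), with an interval of 0.863 to 1.10. Mir675 had a ratio of CPM of 2.64 with a counting interval of 0.602 to 15.8 (Fisher's exact adjusted p = 0.287), from the smallest summed count that entered the test, 10.

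Each side of this test is 1 library, so it compares the libraries and not conditions. With library totals as the scale, 56.5% of all 400 tested loci passed in either direction, 46.2% lower and 10.2% higher in pup 3. The 2 of 5 imprinted loci that passed, both lower, are a share near that background. The median log2 ratio of all tested loci was −0.31, so Mir335 lay 0.14 below it, Mir296 0.55 below it, and Mir298 and Mir483 both 0.28 above it. Among the 331 loci with at least 10 counts in both pups, 7.55% had a lower ratio than Mir296, 34.4% a lower one than Mir335, and 75.5% a lower one than Mir298. With library totals, the coefficient of variation between the pups was 41.0% for Mir296 and 22.2% for Mir335. It was 1.49% for Mir298 and 1.69% for Mir483, against a median of 18.1% over the 331 loci. These coefficients hold for that scale alone. With DESeq2 size factors, a scale described below, the log2 ratio was 0.28 at Mir298 and Mir483, larger in size than the −0.14 at Mir335.

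**Figure D4:**
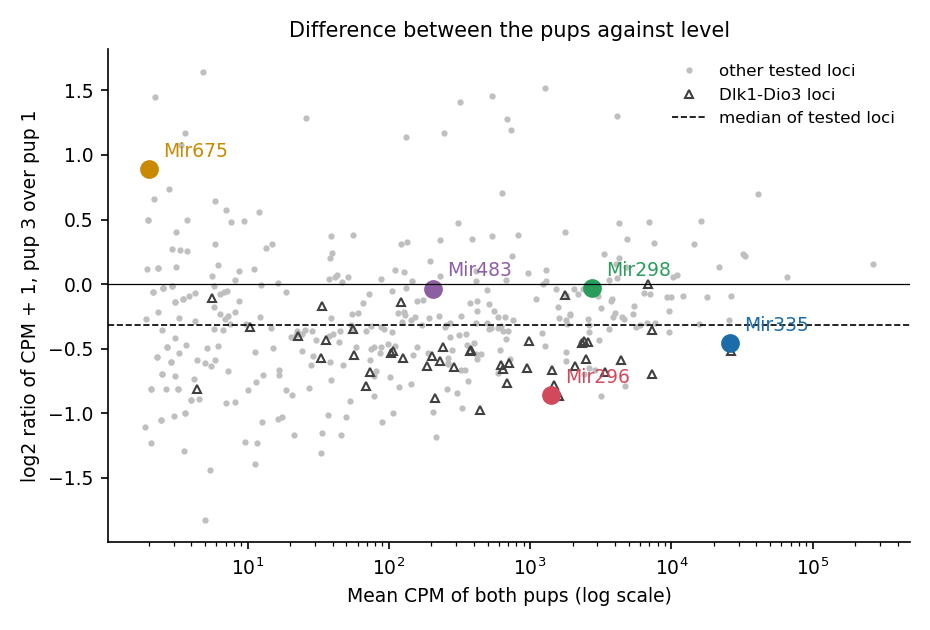
Log2 ratio of CPM + 1 (pup 3 over pup 1) against mean CPM on a log scale, for the tested loci (grey dots), those of the Dlk1-Dio3 region (triangles) and the 5 imprinted loci (colours). The dashed line is the median of all tested loci, −0.31. Mir296 lies well below it at −0.86 and Mir298 above it at −0.03.

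The direction at Mir298 and Mir483 depended on the scale, while Mir335 and Mir296 were lower in pup 3 under every scale tried. With DESeq2 size factors, which move the median of all tested loci to −0.02, Mir335 had a log2 ratio of −0.14 and Mir296 of −0.55 (exact binomial test, adjusted p = 2.63e-70 and 6.17e-54). On that scale Mir298 was higher in pup 3 at 0.28 (exact binomial adjusted p = 3.85e-30) and Mir483 at 0.28 (adjusted p = 0.00485). By that count 2 of 5 loci were lower and 2 higher, where 45.2% of all tested loci passed, 20.8% lower and 24.5% higher. With TMM-adjusted sizes the same 4 passed in the same directions, where 46.5% of all tested loci passed, 26.0% lower and 20.5% higher. The ratio of one locus to another within a library needs no scale. By that measure Mir296 was lower relative to Mir298 in pup 3 than in pup 1, as given above, and Mir298 stood 13.3-fold above Mir483 in pup 1 and 13.4-fold in pup 3.

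**Figure D5:**
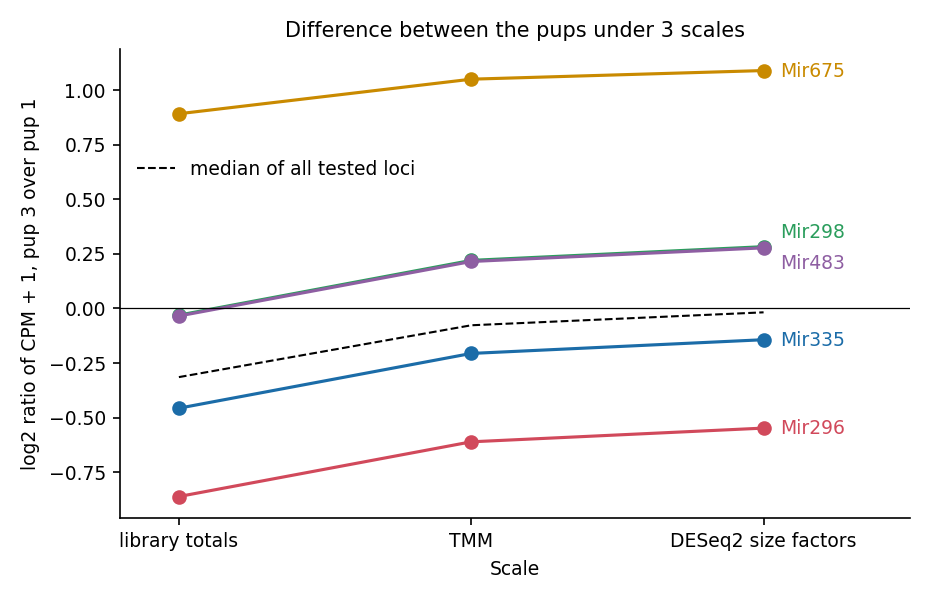
Log2 ratio of CPM + 1 (pup 3 over pup 1) of the 5 loci under library totals, TMM-adjusted sizes and DESeq2 size factors, with the median of all tested loci as a dashed line. Mir335 and Mir296 stay below 0 on the 3 scales, Mir298 and Mir483 move from −0.03 to 0.28, and Mir675 rests on 10 reads.

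The loci nearest to each of the 4 detected ones, by the distance of log2(CPM + 1) over the 2 libraries, included loci of Dlk1-Dio3, the large imprinted miRNA region of chromosome 12. Of the 12 nearest loci, 3 for each, 5 lay there, and of the 327 other detected loci 13.8% did. The nearest to Mir335 was Mir487b of that region (26346 ± 6657 CPM, log2 ratio −0.52), followed by Mir137 and Mir149. The 3 nearest to Mir296 were all of that region: Mir323 (1466 ± 548 CPM, −0.78), Mir370 (1425 ± 459 CPM, −0.67) and Mir433 (1590 ± 658 CPM, −0.87). Mir298 lay nearest to Mir652, Mir484 and Mir1983, none of them in Dlk1-Dio3. Mir483 lay nearest to Mir329 of that region (212 ± 2.17 CPM, −0.02), then to Mir150 and Mir421. With 2 libraries this likeness is one of level and of a single difference.

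Other imprinted regions are counted beside all tested loci, of which 46.2% were lower and 10.2% higher in pup 3 with totals, and 20.8% lower and 24.5% higher with DESeq2 size factors. Of the 58 loci of the Dlk1-Dio3 region, 46 were tested, 36 were lower in pup 3, 0 higher and 10 did not pass, with a median log2 ratio of −0.56, while with size factors 29 were lower and 3 higher. Its leading loci were Mir487b, Mir369 (7325 ± 1280 CPM, log2 ratio −0.36) and Mir127 (7299 ± 2440 CPM, −0.69). Of the 107 loci of the repeat miRNAs within Sfmbt2, an imprinted gene of chromosome 2, 90 had no count in either pup. Reads with several mapping places are in no locus, so these counts leave them out. Of the 10 tested, 4 were lower and 0 higher, with a median of −0.37, but 0 were lower and 2 higher with size factors. The shares of lower loci with totals and of higher loci with size factors are near those of all tested loci. Mir467d, Mir467e and Mir467c led the Sfmbt2 loci, at 679 ± 11.0, 679 ± 141 and 353 ± 66.1 CPM. Of the 13 loci of the Mir344 family on chromosome 7, 4 were tested, and Mir344b was lower, with a log2 ratio of −1.23 (Fisher's exact adjusted p = 0.00175), and lower with size factors too. Their median was −0.62. The family led with Mir344f (12.8 ± 4.64 CPM), Mir344c (12.4 ± 0.0253 CPM) and Mir344b (11.7 ± 7.20 CPM). Mir489 and Mir653 of the Calcr gene had at most 2 counts in a library and were not tested. Their levels, 0.206 ± 0.291 and 0.777 ± 0.0671 CPM, rest on too few reads to be ordered against Mir675.

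Other miRNA loci near the 5 had levels and ratios of their own. Within 1000000 bases of Mir335 lie Mir182, Mir183 and Mir96, the miRNAs of sensory organs, and all 3 were higher in pup 3, with log2 ratios of 1.20, 1.46 and 1.17, against −0.46 at Mir335. Mir29a, in the same window, was lower at −0.75, and these 4 calls held with size factors, and Mir29b-1 had −0.92 with totals (Fisher's exact adjusted p = 0.0776). Around Mir296 and Mir298 the 2 other miRNA loci of the window, Gm27591 and Mir6340, had no count in either pup. Mir7064 and Mir3104, in the windows of both Mir675 and Mir483, had means of 1.37 ± 0.392 and 0.753 ± 0.482 CPM, and Mir7063, in that of Mir675 alone, had 1.01 ± 0.908 CPM. Mir675 was of the same low order as these loci, and Mir483 was far above them.

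Marker lists of cell types are counted beside all tested loci, of which 46.2% were lower and 10.2% higher in pup 3 with totals. With size factors 20.8% were lower and 24.5% higher. The lists are too short for their counts to be set apart from these shares. The 3 multiciliated cell markers (Mir449a, Mir34b, Mir34c) summed to 8186 CPM in pup 1 and 4920 in pup 3, and all 3 were lower in pup 3, with size factors too. The choroid plexus markers Mir204 and Mir211 summed to 2938 and 2280 CPM, with 1 of 2 lower, and 0 with size factors. The pituitary markers Mir7b and Mir375 summed to 3312 and 2123 CPM, both lower, and 1 with size factors. The 4 mesenchyme markers (Mir199a-1, Mir199a-2, Mir199b, Mir214) summed to 151 and 153 CPM, and none of the 3 tested passed, while 1 was higher with size factors. Oligodendrocyte markers (Mir338, Mir219a-1, Mir219a-2) summed to 729 and 550 CPM, with 2 of 3 lower, and 1 with size factors. Red blood cell markers (Mir451a, Mir144, Mir486) summed to 88.2 and 71.3 CPM, with 1 of 3 lower, and 0 with size factors. The white blood cell markers with a row, Mir150 and Mir223, summed to 328 and 355 CPM, and neither passed with totals, while both were higher with size factors. Of the hindbrain and spinal cord markers (Mir10a, Mir10b, Mir615; 234 and 259 CPM), Mir10b was higher on both scales, and so was the liver marker Mir122 (48.1 and 63.0 CPM). The muscle markers Mir1a-1 and Mir133a-1 were at 0, and Mir206 did not pass. Neuron markers summed to 42895 and 38966 CPM, and 4 of them were tested. With totals Mir128-1 and Mir128-2 were higher and Mir137 lower, while with size factors 3 were higher and 0 lower. Vessel markers (Mir126a, Mir143, Mir145a) summed to 34960 and 39382 CPM, with 1 higher and 2 lower, and 2 higher and 0 lower with size factors. Their part in the differences at Mir335 and Mir296 was not tested.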

How the data were processed

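The authors deposited a table for each of 2 libraries, with raw counts of reads per miRNA gene. Assembly mm10 and annotation release M4 are named, per the labels and the notes beside the tables. For the aligner and the counting tool, the sources used here give no name. Column 3, the gene strand by the layout and values, was used, and the 4 rows that name no gene were left out of totals. Identifiers matched GENCODE M21 of GRCm38 for 1894 of 1973 rows. Sequences are from RefSeq (GRCm38.p6).

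The 5 loci, the comparison lists, the marker lists and the naming rule were chosen with earlier results of these data known. The naming rule takes the 5 loci, the 3 nearest detected loci to each, the leading loci of each list and loci that share a seed. Any further locus was named with its values known. Each locus with 10 or more summed counts was compared with all other counts of its library by Fisher's exact test, or by an exact binomial test where edgeR's TMM or DESeq2 factors set the scale. Benjamini-Hochberg adjustment ran over all tested loci, at 0.05. A quasi-likelihood fit in edgeR needs a contrast, which 1 group lacks. The labels name separate pups under the same donor entry. They were taken as separate animals, and n = 2 and every SD rest on that. With 1 library a side the p-values cover counting error only. The tests were run on simulated counts with counting error alone and known library sizes. Spread between animals and estimated scales were not part of that run. Alternatives were other scales, denominators, filters, pseudocounts, the unstranded column and leaving out a replicate. Hairpins were folded with ViennaRNA 2.7.2 at its default settings. Scales came from edgeR 4.0.16 and DESeq2 1.42.0 in R 4.3.3, tests from scipy 1.17.1 in Python 3.11.15, with pandas 2.3.3 and numpy 2.4.6, and figures from matplotlib 3.10.9.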

Additional observations from a re-analysis of the deposited data

How the results depend on the processing

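Mir335 and Mir296 stayed lower in pup 3 and past the threshold under every alternative run, with log2 ratios from −0.46 to −0.14 and from −0.86 to −0.55. Mir675 did not pass under any, and with at least 50 summed counts required it was not tested. Mir298 changed sign with TMM (0.22), DESeq2 size factors (0.28) and totals without Mir99a, the most abundant locus (0.026), and so did Mir483 (0.22, 0.28 and 0.022), and both passed with TMM and size factors. The count of the 5 loci that passed went from 2 to 4 with either of those. Over all loci, 82 were higher and 104 lower with TMM, and 98 and 83 with size factors, against 41 and 185 with totals. These shifts follow from the scale itself.

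Shares moved with the denominator. Without Mir99a in the total, Mir335 held 3.54%, Mir298 0.373%, Mir296 0.191%, Mir483 0.0279% and Mir675 0.000275%. As shares of all reads, Mir335 held 1.07%, Mir298 0.112%, Mir296 0.0578%, Mir483 0.00841% and Mir675 8.20e-05%. With both strands counted, Mir335 held 2.54%, Mir298 0.267%, Mir296 0.137%, Mir483 0.01996% and Mir675 0.000195%. Leaving out a replicate gave 2.19 to 3.00% for Mir335, 0.0996 to 0.181% for Mir296, 0.270 to 0.275% for Mir298, 0.0201 to 0.0206% for Mir483 and 0.000109 to 0.000288% for Mir675. No paired analysis was possible because the series has 1 group, and leaving out a replicate gives no ratio. With 3 and 7 counts, depth limits Mir675 most.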

Other observations

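The neighbours Mir296 and Mir298 can be set beside other close loci of the same strand, a comparison chosen after their values were seen. Of detected loci, 59 adjacent pairs had at most 1000 bases between them, and in the median pair the ratio of both loci differed by 1.18-fold between the pups. At Mir296 and Mir298 it differed by 1.78-fold, and in 4 pairs by more: Mir18b and Mir106a, Mir124a-1 and Mir3078, Mir363 and Mir92-2, and Mir302a and Mir302d. In each of those pairs a locus had fewer than 100 counts in a pup, and the smallest count in Mir363 and Mir92-2 was 93. A cutoff of 100 counts leaves out all 4 of them, and the place of Mir296 and Mir298 that follows rests on it. Among the 40 pairs with at least 100 counts at both loci in both pups, 0 differed by more than Mir296 and Mir298, and the next was Mir23b and Mir27b, with a difference of 0.59 on the log2 scale against 0.83. Mir296 was also among the loci richest in G and C, above 91.5% of the 331 detected loci. Across those 331 loci, which share both libraries, hairpin GC content and the log2 ratio had a Spearman's rho of −0.04 and a Pearson's r of −0.06. The part of base composition in the difference at Mir296 was not tested.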
